A study of Mus musculus with 2 samples.

Results

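The accessible regions around 7 genes of early T cell development were described in thymic progenitors with and without the E proteins E2A and HEB. The genes were Rag1 and Rag2, Ptcra, Cd3e, Cd3d and Cd3g, and Notch1. Their regions were all ATAC-seq peaks with a centre in 4 windows of the mm9 genome: chromosome 2 from 101.35 to 101.60 Mb for Rag1 and Rag2, chromosome 17 from 46.85 to 46.95 Mb for Ptcra, chromosome 9 from 44.72 to 44.90 Mb for the 3 Cd3 genes, and chromosome 2 from 26.25 to 26.45 Mb for Notch1. These windows held 66 of the 85764 wild-type peaks and 57 of the 69896 double-knockout peaks. ATAC-seq marks open DNA by the insertions of a transposase. The cells were early thymic progenitors (ETPs), the most immature thymocytes, sorted from fetal thymus as negative for CD4, CD8, other lineage markers and CD25, and positive for CD44 and Kit. There was 1 library of each genotype, both on the C57BL/6 strain: a wild type, and E2Afl/flHEBfl/flIL7RCre, called the double knockout here, in which Cre from the IL7R driver acts on floxed alleles. The double-knockout cells were also sorted as YFP-positive, a gate that the wild-type sort did not have, so that gate and genotype cannot be told apart. The sources used here do not give age, sex or the number of animals, and neither the loss of E2A and HEB nor the cell type was checked from these peaks.

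Rag1 and Rag2 encode the recombinase that cuts antigen receptor genes. Ptcra encodes the invariant chain that pairs with the first T cell receptor beta chain to form the pre-T cell receptor, and the CD3 epsilon, delta and gamma chains carry its signal into the cell. Notch1 is the receptor through which the thymic stroma drives progenitors into the T lineage. E2A and HEB bind E-box sequences and are known regulators of Rag, Ptcra and Notch1 expression in developing lymphocytes.

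As a reference for the E-box, the promoters of the 7 genes were read from RefSeq (build GRCm38.p6), taking the 250 bases before the annotated start, and all 7 genes matched. The motif CANNTG, which reads the same on both strands, occurred in 6 of the 7, against 66.2% of 32851 promoters of the same length. Rag1 held 3, Cd3g 3, Ptcra 2 and Rag2, Cd3d and Cd3e 1 each, and no match was found in the 250 bases of Notch1. Such counts were common, with 2 or more CANNTG in 31.8% and 3 or more in 12.2% of all promoters. Both E-boxes of Ptcra were CAGCTG, a form that E proteins bind well, starting 60 and 49 bases before the gene start (positions -60 and -49), and 1.26% of all promoters held 2 or more CAGCTG. Rag1 held CAGGTG at -135, CAGCTG at -128 and CATCTG at -85. Cd3g held CAAGTG at -178 and CACCTG at -148 and -35, and 2.06% of all promoters held 2 or more of CACCTG or its reverse complement CAGGTG. In Rag2 the E-box was CAAATG at -161, in Cd3d CACCTG at -112 and in Cd3e CAAGTG at -57. The 4 sequences below were picked after the counts were seen, to show the paired sites of Ptcra, the promoters of both recombinase genes, and the Cd3 gene with most E-boxes. They are written 5′ to 3′ on the gene's strand, with E-boxes in capitals. Their coordinates are on another build than the peaks, so no peak was assigned to a promoter, and a match is a description, not a bound site.
Rag1 (chr2:101649533-101649782, minus strand): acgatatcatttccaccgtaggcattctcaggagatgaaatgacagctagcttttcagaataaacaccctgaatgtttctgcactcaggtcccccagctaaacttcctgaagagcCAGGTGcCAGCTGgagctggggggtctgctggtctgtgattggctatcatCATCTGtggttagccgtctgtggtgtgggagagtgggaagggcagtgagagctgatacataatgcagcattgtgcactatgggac
Rag2 (chr2:101624462-101624711, plus strand): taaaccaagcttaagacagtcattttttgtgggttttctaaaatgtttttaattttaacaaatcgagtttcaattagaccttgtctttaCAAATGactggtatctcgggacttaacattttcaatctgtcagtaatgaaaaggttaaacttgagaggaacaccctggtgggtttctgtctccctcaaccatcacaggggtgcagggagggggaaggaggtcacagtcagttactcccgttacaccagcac
Ptcra (chr17:46763713-46763962, minus strand): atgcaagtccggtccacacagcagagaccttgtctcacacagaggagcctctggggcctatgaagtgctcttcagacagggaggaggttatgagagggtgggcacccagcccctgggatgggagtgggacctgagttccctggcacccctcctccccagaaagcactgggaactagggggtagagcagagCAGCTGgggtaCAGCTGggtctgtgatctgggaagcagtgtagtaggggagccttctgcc
Cd3g (chr9:44980432-44980681, minus strand): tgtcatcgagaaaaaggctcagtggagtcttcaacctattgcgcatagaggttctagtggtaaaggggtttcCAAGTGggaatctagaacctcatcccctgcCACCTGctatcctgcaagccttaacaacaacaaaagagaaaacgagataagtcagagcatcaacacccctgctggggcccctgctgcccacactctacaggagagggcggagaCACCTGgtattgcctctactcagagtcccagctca

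A peak is called kept if at least 1 bp of it lies in a peak of the other library. A wild-type peak without such overlap is called lost and a double-knockout peak without it gained, as names for the class alone. Together the 4 windows held 44 kept, 22 lost and 13 gained peaks. The lost share was 33.3% of the 66 wild-type peaks (22.2 to 46.0%, exact 95% interval), against 39.1% of the whole wild-type list. Gained peaks made up 22.8% of the double-knockout peaks (12.7 to 35.8%), against 25.3% of the whole list. Weak peaks were lost more often over the genome, from 77% of the lowest to 6.63% of the highest decile of wild-type scores. Averaged over the score deciles of the member peaks, the whole lists gave 34.2% lost and 24.7% gained, close to the values of the windows. None of the 10 wild-type peaks of the highest decile in these windows was lost. With 1 library per genotype there is no replicate check and no test between genotypes, and the intervals stand for counting error among peaks alone. Of the 66 wild-type peaks, 20 had no double-knockout peak within 500 bp and 5 had none within 5 kb, measured from edge to edge, against 32.7% and 22.4% of the whole list. Distances given for single peaks are between centres. Of the 57 double-knockout peaks, 10 had no wild-type peak within 500 bp and 5 had none within 5 kb, against 16.4% and 8.56%.

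**Figure D1:**
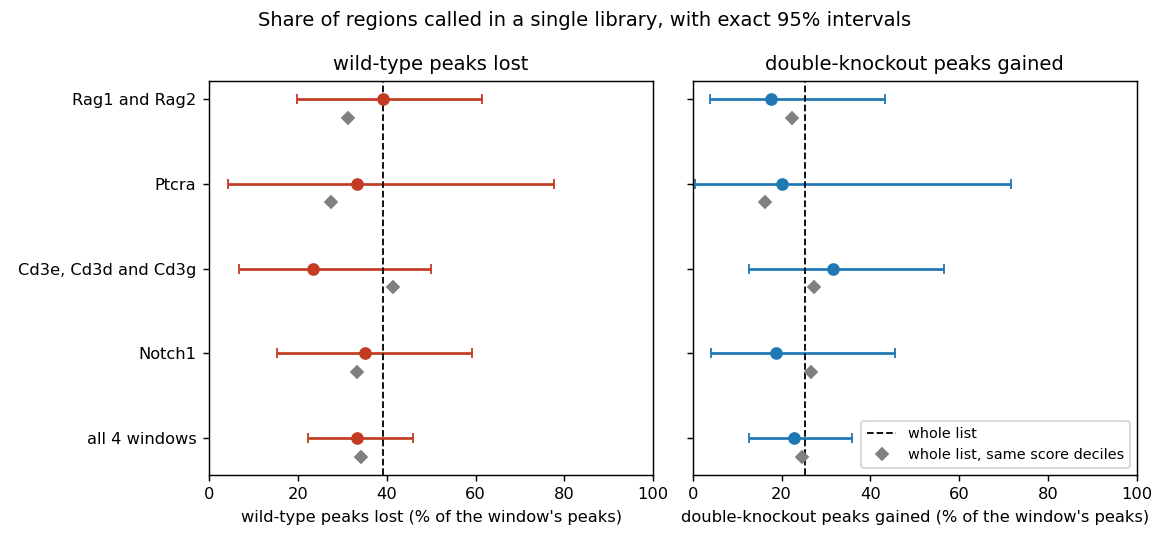
Share of wild-type peaks lost (left) and of double-knockout peaks gained (right) in each window, in percent of the window's peaks. Bars are exact 95% intervals over peaks, the dashed line is the whole list (39.1% and 25.3%) and diamonds are the whole list averaged over the same score deciles. Every interval includes both reference values.

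The windows were denser in peaks than the genome, with 9.04 wild-type and 7.81 double-knockout peaks per 100 kb against 3.25 and 2.65. Kept peaks sat at almost the same place in both lists, with a median shift of 13.5 bp and a largest shift of 101 bp. The wild-type list also held 10 peaks on the Y chromosome and the double-knockout list 0, so that genotype and sex cannot be told apart. The 4 windows lie on autosomes.

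The authors' peak score has no stated unit and was read only as a rank. A percentile within a list is the rank of a peak's score among all peaks of its library. Because the lists differ in length, kept peaks were also ranked among the 52206 kept pairs, which are the same regions in both lists. A difference of at least 10 points between these pair percentiles, double knockout minus wild type, is called lower or higher. Of the 44 kept pairs in the windows, 9 were lower and 11 higher, or 20.5% and 25%, against 21.5% and 23.7% of all pairs. The median difference was 1.31 points, against 0.552 over all pairs, where the quartiles were -7.62 and 9.25. Read as a set, these loci had kept, lost and re-ranked peaks in about the proportions of the whole lists. Fewer wild-type peaks lacked a double-knockout peak within 5 kb, 5 of 66 against 19254 of 85764 in the whole list. For double-knockout peaks it was 5 of 57 against 5980 of 69896. The windows were denser in peaks than the genome, and how far density bears on these counts was not tested.

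**Figure D2:**
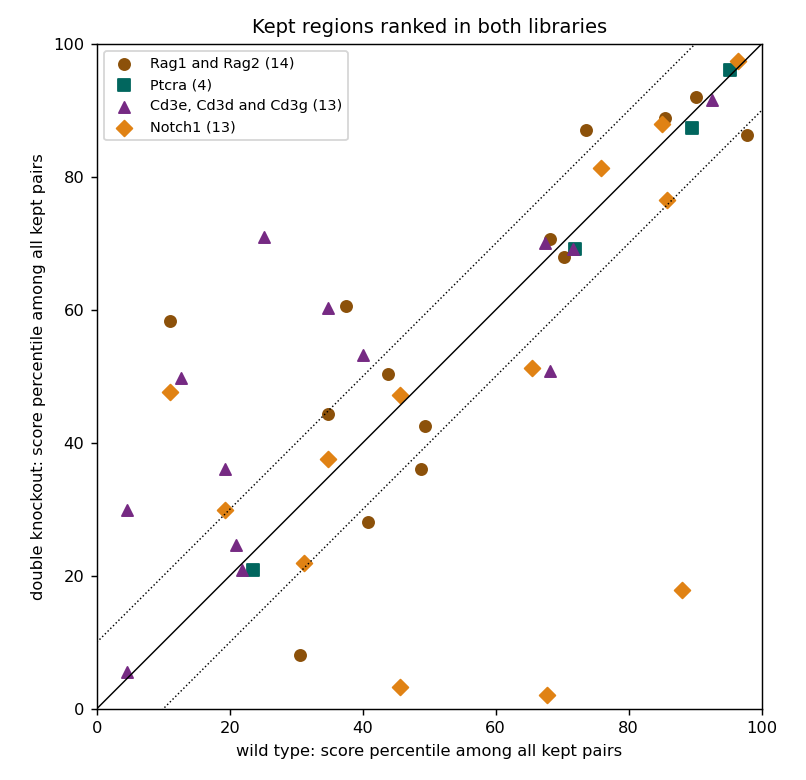
Kept regions of the 4 windows, with the score percentile among all kept pairs of the wild type (x axis) and double knockout (y axis), 1 point per pair. The solid line marks equal rank and dotted lines a difference of 10 points. The 3 Notch1 points farthest below the lines, at double-knockout percentiles of 17.9, 2.07 and 3.25, are the pairs with differences of -70.2, -65.7 and -42.3 points.

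The Rag1 and Rag2 window held 23 wild-type and 17 double-knockout peaks, of which 14 were kept, 9 lost and 3 gained. Lost peaks were 39.1% of its wild-type peaks (19.7 to 61.5%), the value of the whole list, while the whole list gave 31.2% over the same score deciles. Gained peaks were 17.6% of its double-knockout peaks (3.8 to 43.4%), against 22.3% of the whole list over the same deciles. A run of 25.9 kb (chr2:101438995-101464925) held 6 of the lost peaks and 1 kept peak. A longer stretch of 75.5 kb (chr2:101389394-101464925), which includes this run, held 11 wild-type peaks. Of these, 8 were lost, 2 were kept at a lower rank and 1 was kept within 10 points. The double knockout had no gained peak in it. Over the whole wild-type list, 52.2% of peaks were lost or lower. The ends of the run and of the stretch were chosen on these values, so their counts are a description.

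The 2 strongest lost peaks of the window closed this stretch. One at chr2:101464775-101464925 had a score of 16.0 in the wild type, at percentile 77.9 of its list, and the nearest double-knockout peak was 4317 bp away. Its neighbour at chr2:101461847-101461997 scored 15.6 (percentile 77.1), with the nearest double-knockout peak 5678 bp away. In the score decile of both, 22% of wild-type peaks were lost over the genome. The third strongest lost peak lay outside the stretch at chr2:101489604-101489754, with a score of 13.3 (percentile 71.8). A gained peak stood 1179 bp from it, at chr2:101488425-101488575, with a score of 10.1 (percentile 59.8 of the double-knockout list).

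The other 6 lost peaks were of low to middle score. The peak at chr2:101454888-101455038 scored 7.45, the one at chr2:101438995-101439145 scored 6.02, and the pair at chr2:101432455-101432605 and chr2:101448728-101448878 scored 5.91 each. Scores of 5.59 and 4.82 were listed at chr2:101440865-101441015 and chr2:101389394-101389544. These 6 stood at percentiles 24.0 to 46.7 of the wild-type list, where losses were common over the genome (39.8 to 57.3% of the same deciles). From edge to edge, none of the 9 lost peaks of this window had a double-knockout peak within 500 bp, and 2 had none within 5 kb. Of the 33558 lost peaks of the whole list, 28060 had none within 500 bp and 19254 had none within 5 kb. The remaining 2 gained peaks were weak, with scores of 3.93 (chr2:101512160-101512310) and 2.97 (chr2:101582211-101582361).

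The next kept peaks ranked higher in the double knockout. The kept peak at chr2:101469096-101469246 had a wild-type score of 18.8, and its double-knockout partner one of 33.5, at pair percentiles 73.6 and 87.1, a difference of 13.5 points. The next kept peak, at chr2:101477336-101477486, scored 4.71 and 11.5, and its pair percentile went from 11 to 58.3. That difference of 47.4 points was the largest in favour of the double knockout in the 4 windows. Of all pairs, 2.93% differed by 40 points or more in that direction. That share includes pairs that began too high to rise by 40 points, and no share matched for starting rank was computed. A further pair at chr2:101493119-101493269 scored 8.43 and 12.2, with a difference of 23.1 points. These pairs, apart from the first, were named after their values were seen.

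The 5 kept peaks with the highest wild-type scores in the Rag window were present in both libraries by definition. Their double-knockout partners stood at pair percentiles of 67.9 to 92. The strongest, at chr2:101573015-101573165, had a wild-type score of 59.4 and a double-knockout score of 32.3, with pair percentiles of 97.8 and 86.3, a difference of -11.5 points. The peak at chr2:101518479-101518629 scored 35.2 and 44.2 with a difference of 1.90 points, and the one at chr2:101596331-101596481 scored 28.4 and 37.1 with a difference of 3.49 points. After the peak of 18.8 described above came chr2:101505543-101505693, with 17.2 and 15.1 and a difference of -2.49 points. Over the 14 kept pairs of the window 4 were lower and 3 higher, with differences from -22.4 to 47.4 points.

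**Figure D3:**
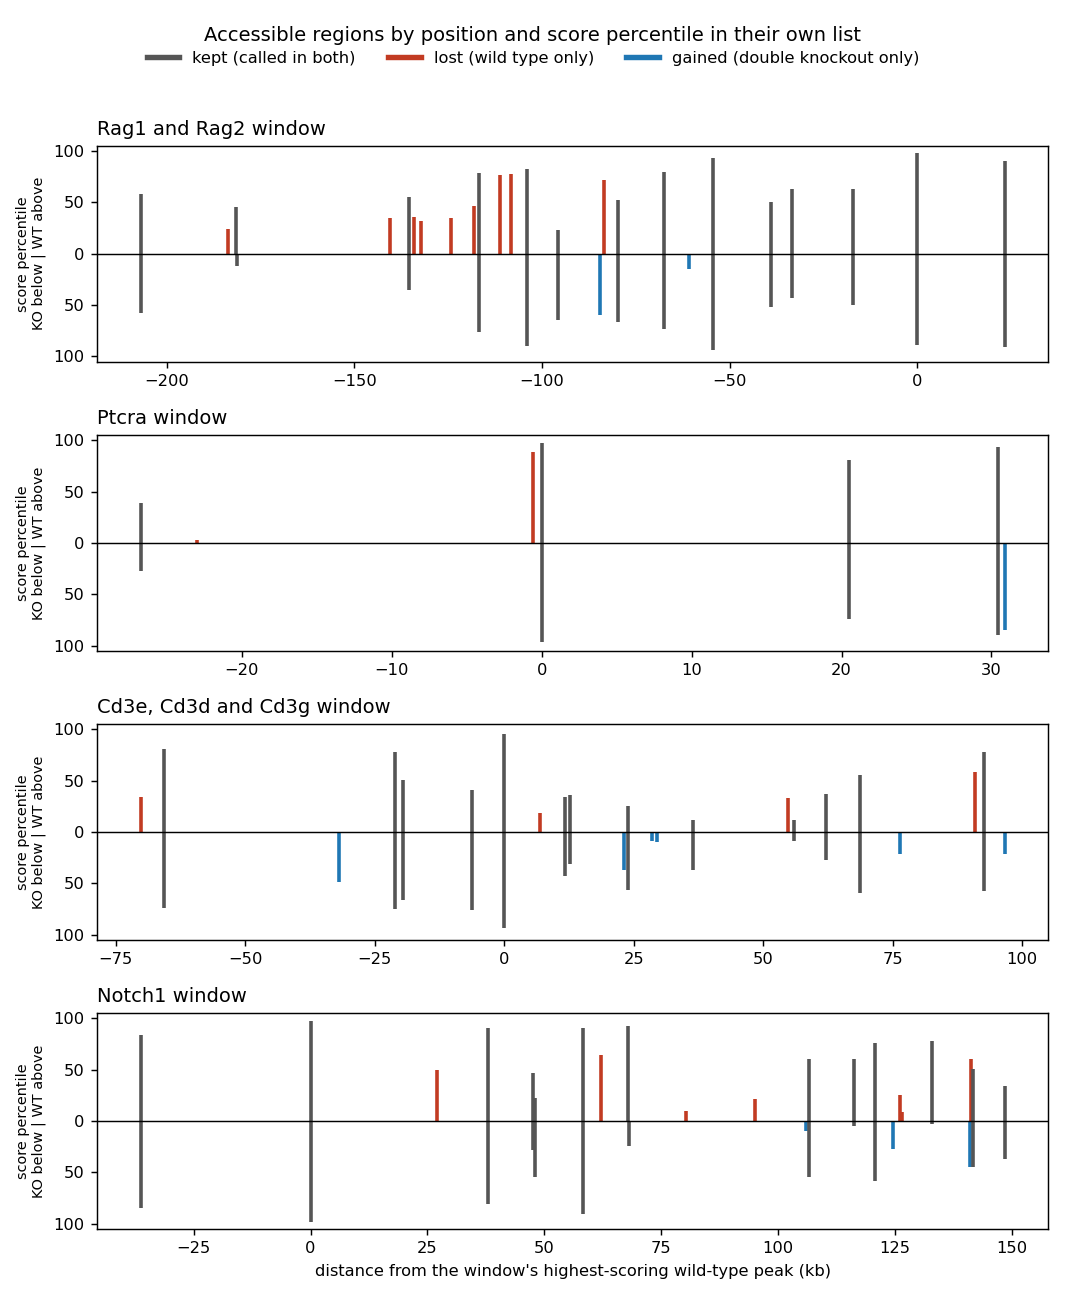
Accessible regions in the 4 windows, with distance from the window's highest-scoring wild-type peak in kb (x axis) and the score percentile of each peak in its own list (y axis), wild type above and double knockout below the line. Grey lines are kept, red lost and blue gained peaks. Most lost peaks of the Rag window lie left of its centre. In the Notch1 window several grey lines are long above and short below the line on the right side.

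The Ptcra window was the sparsest, with 6 wild-type and 5 double-knockout peaks, of which 4 were kept, 2 lost and 1 gained. Lost peaks were 33.3% (4.33 to 77.7%), against 39.1% of the whole list and 27.5% over the same score deciles. Gained peaks were 20% (0.505 to 71.6%), against 25.3% of the whole list and 16.2% over the same deciles. All 4 kept pairs differed by less than 10 points, from -2.68 to 0.846. The strongest, at chr17:46889131-46889281, had a wild-type score of 47.6 and a double-knockout score of 58.3, at pair percentiles 95.3 and 96.1. The peak at chr17:46919543-46919693 scored 34.3 and 34.0, the one at chr17:46909659-46909809 scored 18.0 and 15.8, and the weakest, at chr17:46862392-46862542, scored 6.35 and 4.99. Ranked among the kept pairs, the kept accessible sites around Ptcra stayed within 10 points in both libraries. With percentiles of the whole lists their median difference was -5.04 points, against -2.67 over all kept pairs.

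Each strong change at Ptcra was beside a kept peak. A wild-type peak with a score of 25.6 (chr17:46888570-46888720, percentile 88.8) had no partner, and its centre was 590 bp from the strongest kept peak. It was the highest-scoring lost peak of the 4 windows, in a decile where 13.4% of all wild-type peaks were lost. The gained peak at chr17:46920046-46920196 scored 24.8 (percentile 84.6), the highest of the 13 gained peaks, and its centre was 503 bp from the nearest wild-type peak, which was kept. In its decile, 11.7% of double-knockout peaks were gained. The counts stayed at 2 lost and 1 gained under the rules of 50% overlap and of centres within 200 bp. Counting gaps of up to 500 bp as shared left 1 lost and 0 gained peaks at Ptcra. That rule does not require 1-to-1 partners, and both strong calls became shared through a neighbour already paired with a kept peak. No separate counterpart of either was called in the other library. The peak that was still lost was weak, with a score of 3.29 (chr17:46866182-46866332).

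The window of Cd3e, Cd3d and Cd3g was the only one of the 4 with more double-knockout than wild-type peaks, 19 against 17. It had 13 kept, 4 lost and 6 gained peaks. Lost peaks were 23.5% of its wild-type peaks (6.81 to 49.9%), against 41.5% of the whole list over the same score deciles, a difference within the interval. Gained peaks were 31.6% (12.6 to 56.6%), against 27.4% over the same deciles.

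Of the 13 kept Cd3 pairs 6 were higher in the double knockout, 1 was lower and 6 were within 10 points. The pair at chr9:44788461-44788611 had a wild-type score of 6.57 and a double-knockout score of 16.8, at pair percentiles 25.1 and 70.9, a difference of 45.7 points. The pair at chr9:44818468-44818618 scored 4.93 and 9.34 with a difference of 37.2 points, and chr9:44775019-44775169 scored 7.99 and 12.1 with 25.5 points. At chr9:44830991-44831141 the scores were 3.83 and 6.05, a difference of 25.3 points. The remaining 2 higher pairs, at chr9:44806359-44806509 and chr9:44863324-44863474, differed by 16.7 and 13.0 points. All 6 began in the lower 50% of the pairs in the wild type, where 38.7% of all pairs were higher, and 6 of the 9 Cd3 pairs that began there were higher. Apart from the peaks of highest score, these pairs were named after their values were seen.

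Of the 5 strongest kept Cd3 peaks, 3 stayed within 10 points, 1 was lower and 1 was higher. The highest, at chr9:44794633-44794783, scored 40.2 and 43.0, with a difference of -0.938 points, and those at chr9:44729006-44729156 (17.9 and 15.8) and chr9:44773567-44773717 (15.9 and 16.2) differed by -2.45 and 2.60 points. The peak at chr9:44887200-44887350 scored 16.2 and 9.56 and was the 1 lower pair, at -17.4 points. The fifth was the higher pair at chr9:44863324-44863474 named above, with scores of 8.87 and 10.1.

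Gained and lost Cd3 peaks were mostly weak. The strongest gained peak, at chr9:44762650-44762800, scored 7.86 (percentile 49.1), and its nearest wild-type peak was 10917 bp away. The gained peaks at chr9:44817645-44817795 (6.05), chr9:44823109-44823259 (3.50) and chr9:44824031-44824181 (3.61) stood, together with 2 of the higher pairs, in a stretch of 13.5 kb (chr9:44817645-44831141) without a lost or lower peak, a stretch chosen on these values. Of all double-knockout peaks, 43.0% were gained or higher. The last 2 gained peaks, at chr9:44871025-44871175 and chr9:44891336-44891486, scored 4.46 each. Lost peaks scored 9.53 (chr9:44885514-44885664), 5.80 (chr9:44724399-44724549), 5.70 (chr9:44849471-44849621) and 4.38 (chr9:44801470-44801620). Each of these lost peaks had a double-knockout peak within 5 kb by either measure. From edge to edge, 19254 of the 33558 lost peaks of the whole list had none within 5 kb.

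The Notch1 window held 20 wild-type and 16 double-knockout peaks, of which 13 were kept, 7 lost and 3 gained. Lost peaks were 35.0% of the wild-type peaks (15.4 to 59.2%), against 33.4% of the whole list over the same score deciles. Gained peaks were 18.8% of the double-knockout peaks (4.05 to 45.6%), against 26.7% of the whole list over the same deciles. Of its 13 kept pairs, 4 were lower and 2 higher in the double knockout, or 30.8% and 15.4%, against 21.5% and 23.7% of all pairs. Among the 7 that began at or above percentile 50 of the pairs in the wild type, 3 were lower, against 24.8% of all such pairs. A limit of 40 points was not part of the planned step of 10. By that limit 3 of the 13 were lower, while 4.16% of all pairs and none of the other 31 kept pairs of the 4 windows were.

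The largest difference in rank was at chr2:26369023-26369173. It scored 32.0 in the wild type, at percentile 92.3 of the list, and its double-knockout partner scored 4.67, at percentile 24.0. The pair percentiles were 88.1 and 17.9, a difference of -70.2 points, and the centres were 90 bp apart. By the rule of 50% overlap of both peaks this wild-type peak counted as lost. At chr2:26434038-26434188 the scores were 16.0 and 3.19, a difference of -65.7 points with centres 22 bp apart, and at chr2:26417282-26417432 they were 9.86 and 3.29, a difference of -42.3 points with centres 5 bp apart. The double-knockout scores of these last 2 were in the lowest decile of their list. A further lower pair, at chr2:26421776-26421926, scored 15.1 and 9.66 with a difference of -14.1 points. The first is among the peaks of highest wild-type score, and the other 3 were named after their values were seen.

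These 4 lower pairs and 5 of the 7 lost peaks fell into a stretch of 71.1 kb (chr2:26363135-26434210), chosen on these values. It held 10 wild-type peaks, of which 5 were lost, 4 lower and 1 within 10 points, and 2 gained peaks of low score. Over the whole wild-type list, 52.2% of peaks were lost or lower. The lost peaks there scored 11 (chr2:26363135-26363285, percentile 64.6), 4.93 (chr2:26427072-26427222), 4.60 (chr2:26396084-26396234), 3.72 (chr2:26381370-26381520) and 3.61 (chr2:26427519-26427669). The gained peaks scored 4.99 (chr2:26425678-26425828) and 3.61 (chr2:26407075-26407225). Outside the stretch, a lost peak of score 9.86 at chr2:26442280-26442430 had a gained peak of score 7.11 at chr2:26442053-26442203, 227 bp from it, and the last lost peak, at chr2:26328019-26328169, scored 7.89 with the nearest double-knockout peak 11092 bp away.

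The other 4 strong Notch1 peaks stayed within 10 points. The highest, at chr2:26301031-26301181, had a wild-type score of 51.8 and a double-knockout score of 65.9 (1.07 points). The peak at chr2:26359307-26359457 scored 27.8 and 35.2 (3.01 points), and the one at chr2:26264674-26264824 scored 20.3 and 25.3 (5.39 points). The peak at chr2:26339079-26339229 scored 28.8 and 20.7, with a difference of -9.28 points, below the lower quartile of all pairs (-7.62), and went from percentile 90.8 to 80.8 of its list. In the other direction, the weak pair at chr2:26349064-26349214 scored 4.71 and 8.92 with a difference of 36.8 points, and chr2:26449653-26449803 scored 5.80 and 6.05 with 10.6 points.

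Set side by side, lost or lower peaks made up 56.5% of the wild-type peaks of the Rag window and 55.0% of those of Notch1, against 33.3% at Ptcra and 29.4% at Cd3, with 52.2% over the whole list. Gained or higher peaks made up 63.2% of the double-knockout peaks at Cd3, against 35.3% at Rag, 31.2% at Notch1 and 20% at Ptcra, with 43.0% over the whole list. These shares rest on 5 to 23 peaks per window and were not tested against each other. They were also not matched for starting score. The median wild-type percentile was 36.8 at Cd3, 58.5 at Rag, 60 at Notch1 and 84.9 at Ptcra. Of all kept pairs that began in the lower 50% of the pairs in the wild type, 38.7% were higher, against 23.7% of all pairs. The windows also hold other genes. In the RefSeq gene order the nearest protein-coding neighbours are Iftap and Traf6 for the Rag pair, Cnpy3 and 2310039H08Rik for Ptcra, Ube4a and Mpzl2 for the Cd3 genes, and Sec16a and Egfl7 for Notch1, and which gene a peak acts on was not tested.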

How the data were processed

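The data were ATAC-seq peak lists of 1 wild-type and 1 double-knockout library, assigned to groups from the labelled genotype. Per the submitters' processing notes, mm9 was the build and Bcl2fastq 1.8.4, Bowtie and HOMER were used, and no settings are stated. Thresholds, duplicate removal and any shift of read ends for the transposase are not stated, and each could change which weak peaks are listed. The authors called peaks per sample and deposited a score per peak without a stated unit. It was used only to rank peaks. Read depth is unknown. All peaks but 1 per list were 151 bp wide, so a broad region can be marked at different places.

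Members and lists were chosen with earlier results of these data known. Kept, lost and gained peaks were defined by 1 bp of overlap, and pair ranks by the 52206 kept pairs, with ties at their mean rank. Named in the text are all lost and gained peaks and the 5 kept peaks of highest wild-type score per window, and others where stated. Stretches are the runs of neighbouring peaks with the largest surplus of 1 direction. Intervals are exact (Clopper-Pearson). No test between genotypes was made. Alternatives covered the overlap rule, score threshold, list length, window size and ranking. Classes and ranks were tested on simulated data, made by copying and adding wild-type peaks. Coordinates are 1-based. Gene order and promoters came from RefSeq (GRCm38.p6) and were not placed on mm9, and sequence under the peaks was not analysed here. Python 3.11.15, NumPy 2.4.6, SciPy 1.17.1, pandas 2.3.3 and matplotlib 3.10.9 were used.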

Additional observations from a re-analysis of the deposited data

How the results depend on the processing

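No paired analysis was possible because each genotype had a single library. Leaving out a replicate was likewise impossible. The share of wild-type peaks lost stayed inside its interval in all 35 combinations of window set and alternative, and the share gained in 34 of 35. The exception was Ptcra, where counting gaps of up to 500 bp as shared gave 0% gained in place of 20%. Its 1 gained peak lay inside that distance of a wild-type peak that already had a partner. The intervals are wide, so staying inside them is a weak criterion, and several shares inside them moved by over 1.5 times. The lost share at Ptcra went from 33.3% to 16.7% with gaps of 500 bp and to 20% at equal list length, and at Cd3 from 23.5% to 14.3% in the upper 50% of the lists and to 15.4% in windows narrowed by 20 kb. The gained share at Notch1 went from 18.8% to 6.25% with gaps of 500 bp, and at Rag from 17.6% to 29.4% with 50% overlap and to 30.4% in windows widened by 50 kb. The 9 lost peaks of the Rag window were also 9 at equal list length and with gaps of 500 bp, and 11 under the rule of 50% overlap. Over all 4 windows the share lost ranged from 30% at equal list length to 37.9% with 50% overlap. The whole lists also moved under these rules. Their share lost was 39.1% by the main rule, 32.7% with gaps of 500 bp and 42.2% with 50% overlap. It was 31.4% at equal list length and 38.9% in the upper 50% of the lists. Their share gained was 25.3% by the main rule, 16.4% with gaps of 500 bp and 29.1% with 50% overlap. Median rank differences of kept peaks were small and changed sign in 7 of 35 combinations: at Rag to -0.295 in windows narrowed by 20 kb and to -1.97 with percentiles of the whole lists, at Cd3 to -1.88 and over all 4 windows to -2.98 with the latter, and at Notch1 to -3.39 with gaps of 500 bp, to -9.27 in narrowed windows and to -5.88 with percentiles of the whole lists. The last ranking gave -2.67 over all kept pairs, and the cause was not tested. No direction is read from these medians. At Cd3 the median was 13.0 points in narrowed windows, against 3.74.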
